A study of Mus musculus with 6 samples.

Results

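Protease inhibitors of the serpin family and inhibitors of cysteine cathepsins were followed in splenic dendritic cells that had lost Map3k7. The set comprised 9 genes, taken by their platform symbols: Serpinb2, Serpinb1a, Serpinb6a, Serpinb8, Serpinb9, Serping1, Ctla2a, Ctla2b and Cst3. They were measured by 13 of the 45037 probe sets tested, which named 17097 genes in all. Of these 13 probe sets, 2 end in _s_at, a suffix for probes that can match several transcripts (1 of Serpinb1a and 1 of Ctla2a), and they are named as such wherever they appear below. The 9 genes were picked with their knockout and wild-type values already known. Their differences between the groups are therefore a description, and the p-values quoted for them come from the fit over all probe sets and are not independent evidence.

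The knockout group was 3 samples of C57Bl/6 mice of genotype Map3k7CreER that received tamoxifen for 3 days, so that Cre could delete Map3k7, and the wild-type group was 3 samples of C57Bl/6 mice given the same tamoxifen. Map3k7 encodes TAK1, a kinase that passes signals from Toll-like and tumour necrosis factor receptors to NF-kB and AP-1. In both groups CD11c+ cells were sorted from the spleen by flow cytometry and each sample was hybridised to 1 Affymetrix array. The promoter that drives the Cre, the age of the mice and whether a sample held 1 animal or a pool are not given in the sources used here, so the p-values cover no more than the spread among the 3 samples of a group, which may be technical. The Cre transgene came with the deletion and the effects of each cannot be told apart.

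Serpins trap their target protease by a loop that the protease cuts, after which both proteins stay joined. Clade B serpins lack a cleaved secretion signal and mostly act inside the cell, while Serping1 is secreted into plasma. Cystatins and the Ctla2 proteins act on cysteine proteases of the cathepsin family, which in dendritic cells degrade antigen and the invariant chain of MHC class II inside endosomes. The Ctla2 proteins resemble the propeptide that keeps cathepsin L inactive before its maturation.

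The sequences before the start sites are shown for genes with a probe set on which all knockout arrays were lower than all wild-type arrays. These are Serpinb2, Serpinb9, Ctla2b and Ctla2a. Ctla2a was lower on its _s_at probe set only, and Serpinb9 did not pass the threshold used below. Serpinb8, which lies near Serpinb2, is shown as well. RefSeq promoter windows (GRCm38.p6) were found for 7 of the 9 genes, Serpinb1a and Serping1 being the others. Each line gives the 250 bases before the first listed start, 5′ to 3′ on the strand of the gene. Capitals mark matches to the AP-1 motif TGANTCA, to TATAAA or to the NF-kB motif, searched on both strands.
Serpinb2, chr1:107511173-107511422, plus strand: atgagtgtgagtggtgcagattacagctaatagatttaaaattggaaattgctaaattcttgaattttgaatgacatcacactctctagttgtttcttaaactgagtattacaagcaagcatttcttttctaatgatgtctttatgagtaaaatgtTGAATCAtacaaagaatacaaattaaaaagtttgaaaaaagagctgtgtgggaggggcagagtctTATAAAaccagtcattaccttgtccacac
Serpinb8, chr1:107589756-107590005, plus strand: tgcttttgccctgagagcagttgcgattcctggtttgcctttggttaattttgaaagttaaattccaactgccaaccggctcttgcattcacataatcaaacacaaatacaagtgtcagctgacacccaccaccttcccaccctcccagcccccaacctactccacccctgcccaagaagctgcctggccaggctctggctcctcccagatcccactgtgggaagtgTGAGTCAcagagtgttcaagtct
Serpinb9, chr13:33004291-33004540, plus strand: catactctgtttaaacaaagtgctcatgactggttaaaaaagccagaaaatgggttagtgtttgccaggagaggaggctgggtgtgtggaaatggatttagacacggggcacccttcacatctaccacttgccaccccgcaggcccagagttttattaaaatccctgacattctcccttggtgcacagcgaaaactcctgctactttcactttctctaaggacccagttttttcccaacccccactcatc
Ctla2b, chr13:60897448-60897697, minus strand: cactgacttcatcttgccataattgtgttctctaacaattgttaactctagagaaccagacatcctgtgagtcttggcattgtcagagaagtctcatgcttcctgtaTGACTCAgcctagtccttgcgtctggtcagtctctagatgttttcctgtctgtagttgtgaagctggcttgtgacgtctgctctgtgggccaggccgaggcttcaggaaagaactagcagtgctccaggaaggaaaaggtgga
Ctla2a, chr13:60936626-60936875, minus strand: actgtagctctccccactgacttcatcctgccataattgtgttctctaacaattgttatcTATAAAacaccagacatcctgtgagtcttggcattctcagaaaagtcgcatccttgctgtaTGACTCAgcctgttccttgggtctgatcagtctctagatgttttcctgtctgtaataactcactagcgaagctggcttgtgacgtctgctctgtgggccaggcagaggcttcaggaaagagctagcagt

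The AP-1 letters were present before 4 of the 7 genes, Serpinb2, Serpinb8, Ctla2a and Ctla2b, and in 6.75% of the 32851 windows of the same length in the RefSeq table. Since the genes were picked on the knockout contrast, nothing is read from this count. They lay at positions -94 to -88 of Serpinb2, -23 to -17 of Serpinb8, -143 to -137 of Ctla2b and -129 to -123 of Ctla2a, counted from the base before the start as -1. Serpinb2 also held TATAAA at -29 to -24, and Ctla2a at -190 to -185, letters found in 12.4% of all windows. These positions depend on the start taken, as both genes have another listed start. Counted from that start, AP-1 lay at -181 to -175 and TATAAA at -116 to -111 of Serpinb2. For Ctla2a they lay at -188 to -182 and -249 to -244. None of these matches overlapped another, and a match describes the letters, not a bound site. The NF-kB motif was found in 0 of the 7, against 3.9% of all windows, which says only that these letters are not in this stretch. The windows of Ctla2a and Ctla2b were near copies: of the 300 bases of each (the 250 shown and 50 after the start) 255 aligned as identical, or 85.0%, while the other 20 pairs among the 7 genes reached 43.0% to 54.7%. The AP-1 matches of Ctla2a and Ctla2b are thus not independent of each other. The Ctla2 genes also lie close together on chromosome 13, with only Tpbpb between them among protein-coding genes in the RefSeq table.

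In knockout cells Serpinb2, Ctla2b and the _s_at probe set of Ctla2a were lower, Serpinb9 stood lower on both of its probe sets without passing the threshold, and the differences of Cst3, Serpinb1a and Serping1 lay within 0.16 of 0 on the log2 scale. With limma and Benjamini-Hochberg adjustment over all 45037 probe sets, 3 of the 13 probe sets fell at an adjusted p under 0.05, 0 rose and 10 did not pass, while 6 had an unadjusted p under 0.05. Kept apart, 2 of the 11 probe sets without that suffix and 1 of the 2 with _s_at fell. Over all probe sets 0.391% fell and 0.804% rose. The median difference of the 13 was -0.16 on the log2 scale, beside -0.01 over all probe sets. On 5 of the 13 probe sets all knockout arrays were lower than all wild-type arrays, as on 8.83% of all probe sets, and on 1 all were higher, as on 8.64% of all. Of these 5, 4 were among the 11 without the suffix and 1 was an _s_at probe set. Since the genes were picked on this contrast, nothing is read from these shares.

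**Figure D1:**
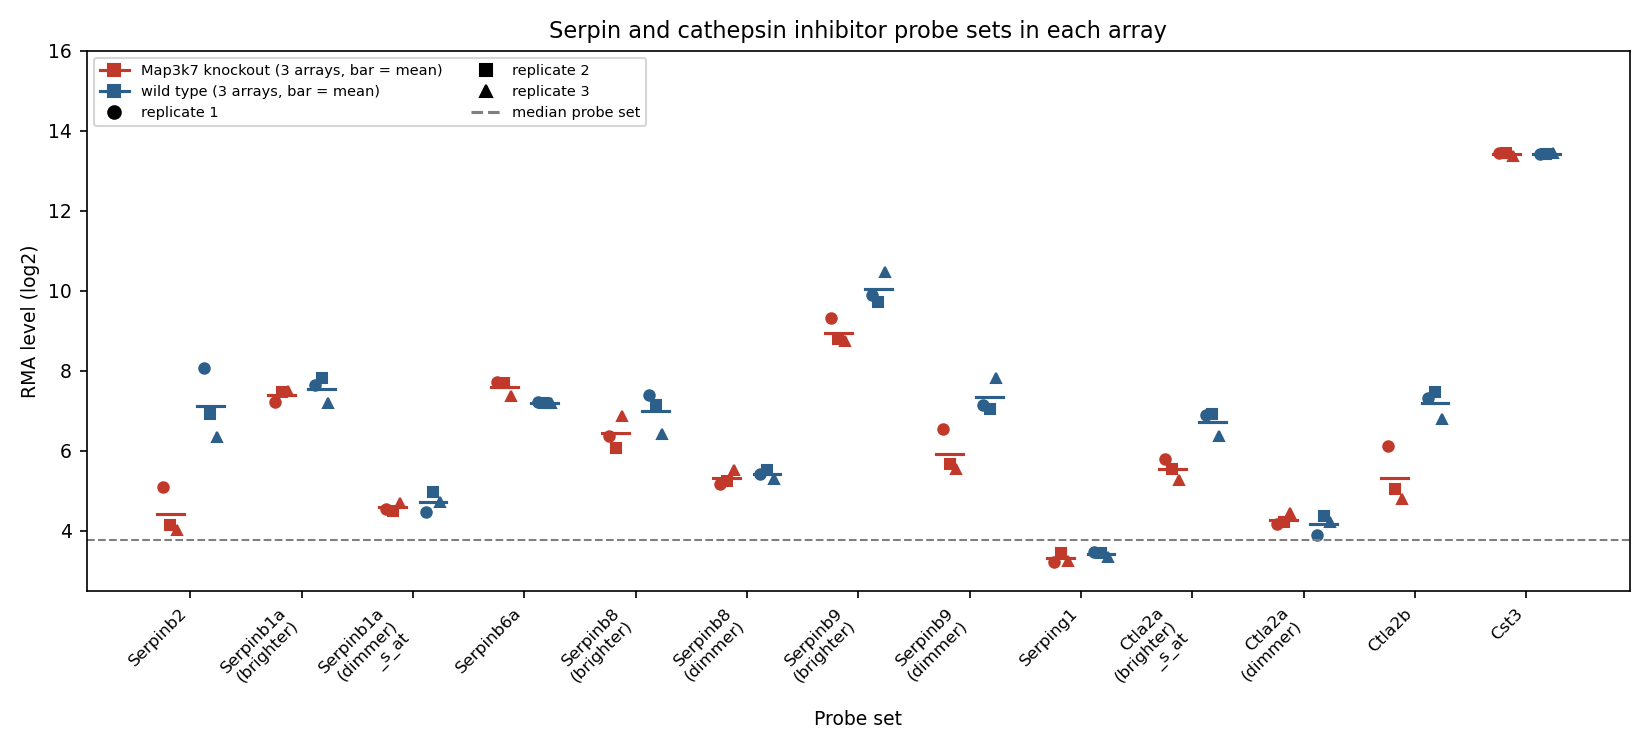
Level (log2 RMA, vertical axis) of each of the 13 probe sets in the 3 knockout arrays (red, left of each pair) and the 3 wild-type arrays (blue, right), with bars at the group means and a dashed line at the median probe set. The groups are apart on Serpinb2, both Serpinb9 probe sets, the Ctla2a _s_at probe set, Ctla2b and, in the other direction, Serpinb6a, while Cst3 lies near 13.4 in all arrays.

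The check of the deletion and of the sorted cells gave the following values. Map3k7 fell on its brightest probe set to 4.04, 4.46 and 3.64 in knockout arrays, against 6.68, 6.69 and 6.57 in wild-type arrays (log2 difference -2.60, SE 0.19, limma adjusted p = 0.00128), and 3 of its 5 probe sets passed. Whether these probes lie in the deleted part was not analysed here. All 12 measured dendritic cell markers were above the median probe set. Of these 2 rose (Itgae and Clec10a) and 0 fell, beside 1.08% and 0.591% of all genes. However, 9 of the 12 differences were negative, with a median of -0.19. Zbtb46 (-0.75, limma adjusted p = 0.0621), Xcr1 (-0.81, limma adjusted p = 0.14) and Irf8 (-0.59, limma adjusted p = 0.121) were lower in all knockout arrays than in all wild-type arrays. Flt3 (0.35, limma adjusted p = 0.284), Itgae and Clec10a were higher in all knockout arrays than in all wild-type arrays. Over all genes 10.6% were apart in the lower direction and 10.6% in the higher. Itgax, which encodes CD11c, averaged 10.93 ± 0.10 in knockout cells and 11.16 ± 0.16 in wild-type cells (SD, n = 3 each). In bulk RNA, fewer cells of a type and less RNA per cell cannot be told apart. The array medians lay between 3.77 and 3.81, the median probe set averaged 3.77 over the arrays, and a gene near that level may be unexpressed. With 3 arrays a group, precision is limited throughout.

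Serpinb2, which inhibits the plasminogen activators urokinase and tissue-type activator and is among the serpins that macrophages induce on stimulation, differed by more than any other member. Its only probe set (1419082_PM_at) read 5.10, 4.16 and 4.03 in knockout arrays, against 8.08, 6.92 and 6.35 in wild-type arrays. All knockout values were below all wild-type values, with a gap of 1.25 between the nearest arrays. Serpinb2 fell by 2.69 on the log2 scale (SE 0.44, 95% interval -3.72 to -1.66, limma adjusted p = 0.0367), a 6.46-fold lower signal, and ranked 7 among the 45037 probe sets ordered from the most negative difference. Its wild-type level was also among the least even: the SD of 0.88 over the 3 wild-type arrays was larger than that of 99.7% of the brighter probe sets (those not below the median probe set). Wild-type replicate 1 was the highest of the 6 arrays and stood 1.73 above wild-type replicate 3.

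Serpinb9, the serpin that protects cells from granzyme B, was lower in all knockout arrays on both of its probe sets. The brighter one (1422601_PM_at) read 9.33, 8.80 and 8.74 in knockout arrays, against 9.91, 9.72 and 10.48 in wild-type arrays. The dimmer one (1439790_PM_at) read 6.56, 5.66 and 5.54 in knockout arrays, against 7.16, 7.05 and 7.83 in wild-type arrays. On both, knockout replicate 1 was the nearest to wild type and wild-type replicate 3 the farthest from knockout, and the groups did not overlap. The differences were -1.08 (SE 0.23, limma adjusted p = 0.0747) and -1.43 (SE 0.30, limma adjusted p = 0.0762), or 2.11-fold and 2.69-fold lower, and neither passed. Granzyme B itself, Gzmb, was below the median probe set at 3.72 ± 0.29 in knockout cells and 3.63 ± 0.07 in wild-type cells (SD, n = 3 each).

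The other clade B serpins differed less. Serpinb8, which can inhibit furin, read 6.37, 6.08 and 6.87 on its brighter probe set in knockout arrays, against 7.39, 7.15 and 6.42 in wild-type arrays. Here the groups overlapped, since knockout replicate 3 was above wild-type replicate 3, and the difference of -0.55 (SE 0.28, 95% interval -1.19 to 0.10) did not pass (limma adjusted p = 0.503). The dimmer Serpinb8 probe set differed by -0.11 (limma adjusted p = 0.82). Serpinb1a, an inhibitor of neutrophil elastase and cathepsin G, read 7.22, 7.48 and 7.50 in knockout arrays, against 7.65, 7.82 and 7.20 in wild-type arrays. These values interleave, and the difference was -0.16 (SE 0.17, limma adjusted p = 0.809). Its _s_at probe set, at 4.59 ± 0.11 in knockout cells and 4.72 ± 0.25 in wild-type cells (SD, n = 3 each), differed by -0.13 (limma adjusted p = 0.803).

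Serpinb6a, an inhibitor of cathepsin G, was the member whose knockout arrays all lay above the wild-type arrays. It read 7.72, 7.70 and 7.36 in knockout arrays, against 7.22, 7.20 and 7.19 in wild-type arrays. The gap between the nearest arrays was 0.14. The difference of 0.39 (SE 0.12, 95% interval 0.12 to 0.66) did not pass over all probe sets (limma adjusted p = 0.204). The wild-type SD of 0.02 was larger than that of only 1.0% of those brighter probe sets. Serping1, the secreted inhibitor of the complement proteases C1r and C1s, was below the median probe set in all arrays, at 3.23, 3.45 and 3.26 in knockout arrays, against 3.48, 3.45 and 3.34 in wild-type arrays. At that level a difference (here -0.11, limma adjusted p = 0.77) says little about the transcript.

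**Figure D2:**
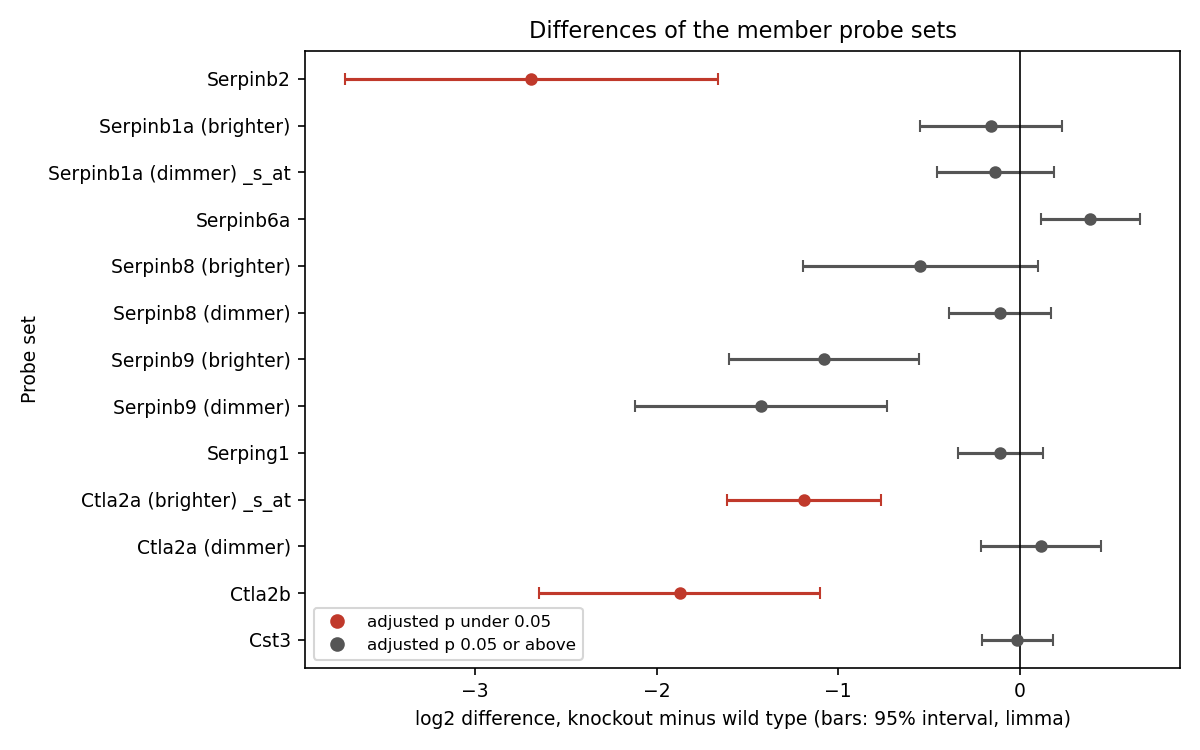
Difference in log2 level, knockout minus wild type (horizontal axis), of each of the 13 probe sets with its 95% interval from limma, red where the adjusted p over all probe sets was under 0.05. Serpinb2, Ctla2b and the Ctla2a _s_at probe set are red at -2.69, -1.87 and -1.19, while the dimmer Ctla2a probe set lies at 0.12.

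Of the cathepsin inhibitors, Ctla2b showed the larger fall. Its probe set (1452352_PM_at) read 6.12, 5.06 and 4.80 in knockout arrays, against 7.32, 7.48 and 6.80 in wild-type arrays. The groups did not overlap, and the knockout arrays were spread more widely, with an SD of 0.70 against 0.35 in wild type. Ctla2b fell by 1.87 (SE 0.33, 95% interval -2.65 to -1.10, limma adjusted p = 0.048), which is 3.66-fold lower.

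Ctla2a gave different answers on its probe sets. The _s_at probe set (1416811_PM_s_at), named Ctla2a by the platform, read 5.79, 5.56 and 5.27 in knockout arrays, against 6.89, 6.91 and 6.38 in wild-type arrays. It fell by 1.19 (SE 0.18, limma adjusted p = 0.0291), 2.28-fold lower, with no overlap between groups. The other Ctla2a probe set (1448471_PM_a_at) read 4.16, 4.23 and 4.45 in knockout arrays, against 3.90, 4.37 and 4.23 in wild-type arrays. These groups overlapped, and the difference was 0.12 (SE 0.14, 95% interval -0.22 to 0.45, limma adjusted p = 0.838). With means of 4.28 in knockout and 4.16 in wild-type cells, this probe set lay near the median probe set at 3.77. It could therefore hardly show a fall. The fall thus stands on a probe set whose suffix allows a match to Ctla2b, and over the 6 arrays that probe set and the Ctla2b probe set had a Pearson r of 0.98. The other Ctla2a probe set had an r of -0.46 with Ctla2b. Both correlations share the 6 arrays and the split between the groups and are given as a description. How much of the _s_at signal came from each gene was not tested.

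Cst3, cystatin C, a secreted inhibitor of cathepsins, had close values in all arrays. It read 13.45, 13.43 and 13.37 in knockout arrays, against 13.43, 13.43 and 13.43 in wild-type arrays, near the highest value of the whole table, 13.91. Whether this probe set can still register a change so near the top of the scale was not tested. The difference was -0.01 (SE 0.08, 95% interval -0.21 to 0.18, limma adjusted p = 0.977).

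The calls for the lower members changed with the arrays in the fit, as did the calls over all probe sets. With each array left out in turn, Serpinb2 and the Ctla2a _s_at probe set passed in 2 of 6 fits, those without knockout replicate 1 or wild-type replicate 3, and Ctla2b passed in 1, that without knockout replicate 1. Across these fits the differences ran from -3.07 to -2.21 for Serpinb2, from -1.36 to -1.05 for the Ctla2a _s_at probe set and from -2.27 to -1.61 for Ctla2b. Since the groups did not overlap on these probe sets, leaving out 1 array could not turn their sign. A fit with fewer arrays is also less precise. With all 6 arrays 176 probe sets of the whole table fell. Without knockout replicate 2 or 3 these were 25 and 85, and without wild-type replicate 1 or 2 they were 46 and 49. Without knockout replicate 1 both Serpinb9 probe sets passed as well, with limma adjusted p = 0.0418 and limma adjusted p = 0.0181. Knockout replicate 1 was the highest knockout array on 5 of the 5 probe sets whose groups did not overlap and were lower. It was also the highest on 55.9% of the 2509 brighter probe sets with the same separation.

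**Figure D3:**
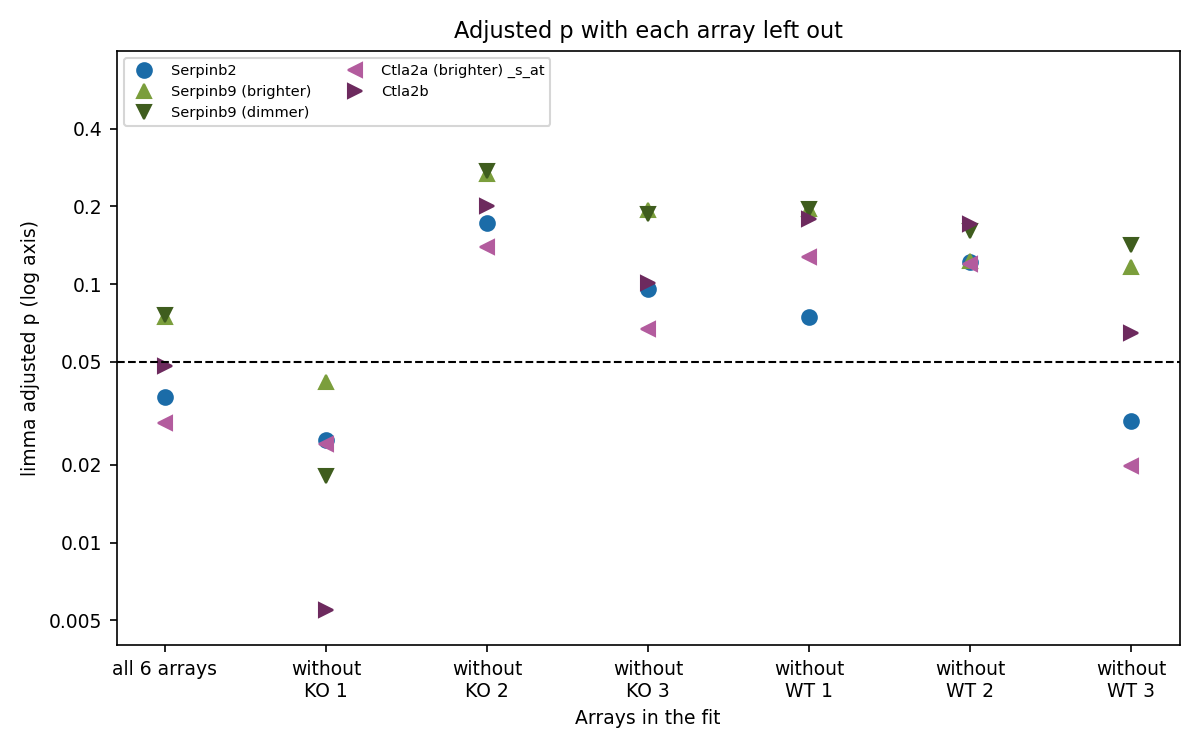
Adjusted p from limma (log axis) of the 5 lower probe sets with all 6 arrays and with each array left out, with a dashed line at 0.05. Without knockout replicate 1 all 5 lie under the line, and without knockout replicate 2, knockout replicate 3, wild-type replicate 1 or wild-type replicate 2 none does.

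Relatives of the members on the same array gave no call. Of 30 other measured serpin genes 0 rose and 0 fell, beside 1.08% and 0.591% of all genes counted by their brightest probe set, and 23 of the 30 averaged below the median probe set. Their median difference was -0.07, beside -0.02 over all genes. The smallest p among them belonged to Serpinb6b, a clade B serpin that lies next to Serpinb9 on chromosome 13. It read 10.31, 9.68 and 8.83 in knockout arrays, against 10.91, 11.03 and 10.92 in wild-type arrays. Knockout replicate 3 was far below the narrow wild-type range, and the difference of -1.35 (SE 0.32, limma adjusted p = 0.108) passed only without knockout replicate 1 among the fits with 1 array left out (limma adjusted p = 0.0205). Serpinb6a and Serpinb6b are close relatives, and whether their probes match both was not analysed here. Serpinc1, antithrombin, stood at 4.09 ± 0.29 in knockout cells and 4.63 ± 0.20 in wild-type cells (SD, n = 3 each), a difference of -0.55 (limma adjusted p = 0.204).

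By position the clade B members fall into a group of 12 Serpinb genes on chromosome 1, with Serpinb2 and Serpinb8, and a group of 16 on chromosome 13, with Serpinb1a, Serpinb6a and Serpinb9. On chromosome 1 the measured neighbours of Serpinb2 were Serpinb7, at a difference of 0.15 (limma adjusted p = 0.807), and Serpinb8, and Serpinb10 between Serpinb2 and Serpinb8 was not analysed here. Of the 7 measured genes of that group Serpinb2 was the 1 that fell, and of the 10 measured on chromosome 13, 0 passed. Over all genes 0.591% fell and 1.08% rose. Only 3 of the 7 and 4 of the 10 averaged at or above the median probe set, so most could hardly show a fall. Beside Serpinb6a lies Nqo2, a quinone reductase, which rose by 0.74 (limma adjusted p = 0.0175) and was picked after its value was seen.

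Of 12 other cystatins and stefins 0 passed, with a median of 0.02, and 9 averaged below the median probe set. Those with the smallest p were Cst7, cystatin F, at 0.22 (limma adjusted p = 0.69) and Stfa3 at 0.14 (limma adjusted p = 0.707).

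Among the proteases that cathepsin inhibitors act on, cathepsin C was higher in knockout cells. Of 11 cysteine proteases (cathepsins and legumain) 1 rose and 0 fell, beside 1.08% and 0.591% of all genes, with a median difference of 0.12. Ctsc, cathepsin C, which activates granule serine proteases, read 12.05, 12.11 and 12.18 in knockout arrays, against 11.44, 11.30 and 11.58 in wild-type arrays. The groups were apart, and Ctsc rose by 0.67 (SE 0.10, limma adjusted p = 0.0295), 1.59-fold. It passed in 2 of the 6 fits that each omit 1 array, those without knockout replicate 1 or wild-type replicate 3. Its other 2 probe sets differed by 0.90 and 0.69 and did not pass. Ctsl, cathepsin L, the target of Ctla2 proteins, read 8.99, 9.76 and 9.23 in knockout arrays, against 8.60, 8.30 and 8.09 in wild-type arrays. Its groups did not overlap, and the difference of 1.0 (SE 0.21, limma adjusted p = 0.0791) did not pass. The dimmer probe set of Ctsl differed by 0.03 (limma adjusted p = 0.94). In 6 of the 11 genes every knockout array was above every wild-type array (Ctsb, Ctsc, Ctsh, Ctsl, Ctss and Lgmn), beside 10.6% of all genes.

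**Figure D4:**
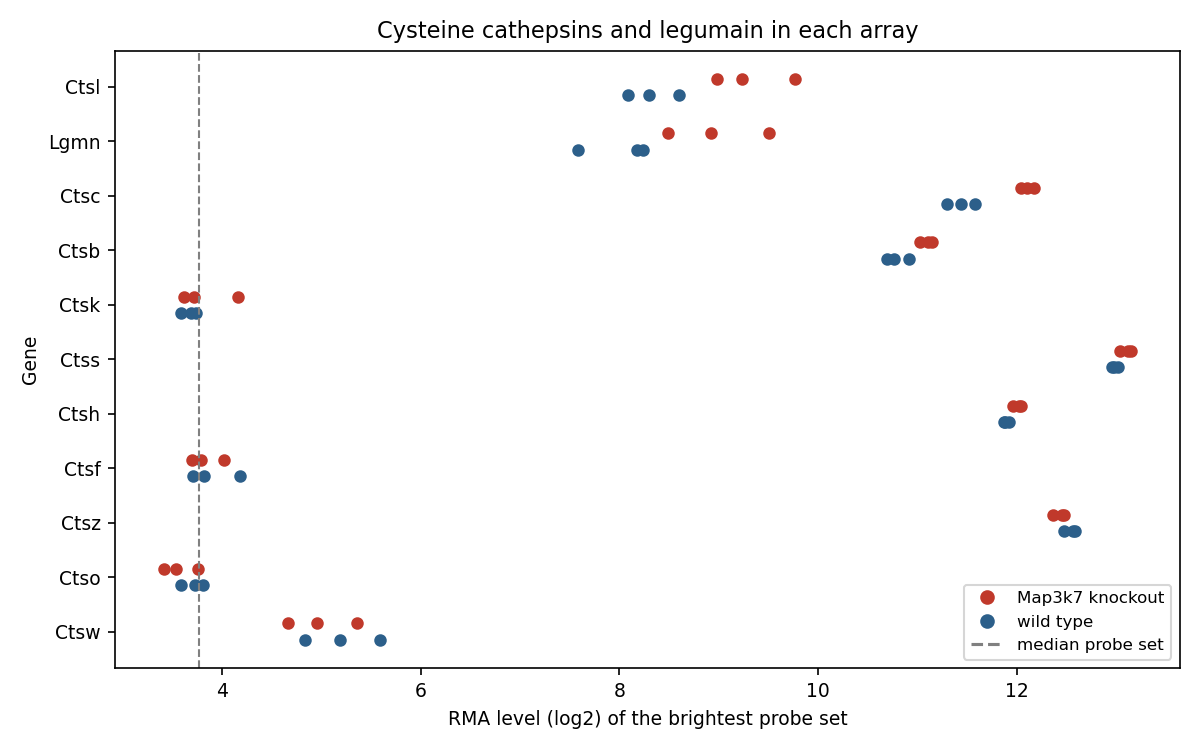
Level (log2 RMA, horizontal axis) of the brightest probe set of 11 cysteine proteases in the 3 knockout arrays (red, upper row of each gene) and the 3 wild-type arrays (blue, lower row), ordered by difference, with a dashed line at the median probe set. Ctsl, Lgmn, Ctsc, Ctsb, Ctss and Ctsh have all red points to the right of all blue points, and Ctsc alone passed the threshold.

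The serine proteases that serpins can bind were mostly dim. Of 22 measured, 18 averaged below the median probe set and 0 passed, with a median of -0.06. These included Plau, urokinase, the target of Serpinb2, at 3.44 ± 0.11 in knockout cells and 3.52 ± 0.10 in wild-type cells, and Elane, neutrophil elastase, at 3.66 ± 0.13 in knockout cells and 3.58 ± 0.10 in wild-type cells (SD, n = 3 each). Furin, a target of Serpinb8, was above the median probe set, at 5.92 ± 0.21 in knockout cells and 5.69 ± 0.08 in wild-type cells (limma adjusted p = 0.541). The smallest p belonged to Gzma, granzyme A, at 0.59 (limma adjusted p = 0.293) and Masp1, a protease of the lectin pathway of complement, at -0.29 (limma adjusted p = 0.384). The Masp1 value comes from an _s_at probe set below the median probe set, and its other 4 probe sets differed by -0.08, -0.01, 0.03 and 0.01.

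Some markers of other cells differed between the groups, and their part in the members' differences was not tested. Each list is given by its summed linear signal per array. Of 13 macrophage markers 3 rose (Cd163, Cd5l and Mertk) and 0 fell, beside 1.08% and 0.591% of all genes. Their sums overlapped, at 3959 to 5820 in knockout arrays and 4407 to 4887 in wild-type arrays. Of 6 erythroid markers the globin Hbb-b2 fell and 0 rose, with sums of 119 to 271 in knockout arrays and 666 to 2637 in wild-type arrays, and Klf1 and Alas2 averaged below the median probe set. In the other lists 0 genes passed. The 10 neutrophil markers summed to 403 to 1523 in knockout arrays and 234 to 375 in wild-type arrays, with Mpo, Camp, Cxcr2 and Mmp8 below the median probe set. The 9 T cell markers summed to 253 to 326 in knockout arrays and 382 to 395 in wild-type arrays, with Cd28 and Bcl11b below it. The 8 natural killer cell markers summed to 817 to 995 in knockout arrays and 649 to 832 in wild-type arrays, with Ncr1, Klrb1c and Klra8 below it. For B cells (7 genes, Pax5 below it) the sums were 423 to 491 in knockout arrays and 543 to 685 in wild-type arrays. For monocytes (6 genes, F13a1 below it) they were 1350 to 1821 in knockout arrays and 1254 to 1682 in wild-type arrays. Endothelial markers (9 genes, with Cdh5, Tek, Tie1, Emcn and Sox17 below it) summed to 271 to 292 in knockout arrays and 185 to 225 in wild-type arrays. Mast cell and basophil markers (8 genes, with Cpa3, Mcpt8, Gata2, Fcer1a and Cma1 below it) summed to 834 to 890 in knockout arrays and 827 to 1116 in wild-type arrays. Plasmacytoid dendritic cell markers (5 genes) summed to 1002 to 1648 in knockout arrays and 1100 to 1414 in wild-type arrays. Such sums rest mostly on the brightest genes of a list and do not describe the list as a whole. The brightest endothelial marker was Pecam1, at 7.18 in knockout cells and 6.24 in wild-type cells (limma adjusted p = 0.0681). For neutrophils it was S100a9, at 8.26 in knockout and 6.73 in wild-type cells (limma adjusted p = 0.343). S100a8, at 7.87 in knockout and 5.58 in wild-type cells (limma adjusted p = 0.147), was higher in all knockout arrays than in all wild-type arrays. Of the 10 neutrophil differences 7 were positive and 3 negative. For natural killer cells the brightest marker was Klrk1, at 9.61 in knockout and 9.33 in wild-type cells. For mast cells and basophils it was Kit, at 9.46 in knockout and 9.66 in wild-type cells. For T cells it was Cd4, at 5.92 in knockout and 6.89 in wild-type cells (limma adjusted p = 0.0535). The differences of Cd3e, Cd3d and Cd3g were -0.09, -0.25 and -0.13, and of the 9 T cell markers 7 were negative and 2 positive. Which cells the Cd4 signal came from was not tested.

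Genes of like pattern were listed by Pearson r over the 6 arrays among 10512 genes at or above the median probe set. Nearest to Serpinb2 were Memo1 (r = 0.991), Gtf2e1 (r = 0.988) and Sumo2 (r = 0.986), and 335 genes had an r over 0.9. Their differences were smaller than that of Serpinb2, at -0.51, -0.27 and -0.16. Nearest to the Ctla2a _s_at probe set, the cathepsin inhibitor with the largest t, were Emp3 (r = 0.995), Dkk3 (r = 0.994) and Rbbp7 (r = 0.993), and 581 genes had an r over 0.9. With 6 arrays in 2 groups, any gene that separates the groups can reach such values.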

How the data were processed

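RNA from 3 Map3k7-knockout and 3 wild-type samples was analysed on 1 array each, from 100 ng of RNA. The authors deposited log2 values, a scale read from their range of 2.58 to 13.91. Per the submitters' processing notes, RMA was run in version 1.1 of Affymetrix Expression Console; it corrects background, equalises the arrays' distributions and summarises each probe set. RMA pulls dim signals together, so folds of dim genes are understated. Of 45141 probe sets 104 controls were left out; 28898 carried 1 gene symbol, 551 several and 15588 none. The probe set with the highest mean stood for a gene. Knockout minus wild type was fitted with limma 3.58.1 in R 4.3.3 (lmFit, eBayes, no covariates; Benjamini-Hochberg over 45037 probe sets, threshold 0.05), tested on simulated data. The member genes and lists were chosen with earlier results of these data known. Named were all members, Map3k7, and from each protease or inhibitor list the genes past the threshold (up to 4) or, with fewer than 2, the 2 with the smallest p, and the 3 genes of highest r to 1 serpin and 1 cathepsin inhibitor; other genes were chosen after their values were seen. Alternatives were filters, normalization, variance models, weights, thresholds, the replicate block and leaving out each array. Promoter windows were aligned with Biopython 1.88 and figures drawn with matplotlib 3.10.9.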

Additional observations from a re-analysis of the deposited data

How the results depend on the processing

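Over all probe sets 362 rose and 176 fell, and of the 13 probe sets of serpins and cathepsin inhibitors 0 rose and 3 fell. With 1 array left out these counts ran from 100 to 498 higher and 25 to 362 lower over all probe sets, and from 0 to 5 lower among the 13, where 0 rose in each fit. Array weights gave 268 lower. An adjusted p under 0.01 left 108 higher and 26 lower, with 0 lower among the 13, and an adjusted p under 0.1 gave 709 higher and 447 lower, with 5 lower among the 13. A trended prior variance gave 5 lower among the 13, the added ones being both Serpinb9 probe sets. With the replicate number as a block 567 were higher and 426 lower. The numbers share no stated source and deviations of same-numbered arrays correlated at 0.08, 0.15 and 0.37, so this is a hint at most, and not every array correlated best with its own number. Without probe sets ending in x or s, Ctla2a was represented by its other probe set, at 0.12 (limma adjusted p = 0.844), the opposite sign from -1.19, and Ctla2b missed the threshold after a further quantile normalization (-1.92, limma adjusted p = 0.0502). As the mean of both probe sets Ctla2a stood at -0.54. Serping1 gave no value on probe sets above the median level. Low signal limits Serping1 and the dimmer Ctla2a probe set.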
